A study of Homo sapiens with 6 samples.

Results

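The genes described here are 10 regulators that restrain the extracellular signal-regulated kinase (ERK) cascade and the related MAP kinases: *DUSP1*, *DUSP2*, *DUSP4*, *DUSP5*, *DUSP6*, *DUSP10*, *DUSP22*, *SPRY1*, *SPRED1* and *SPRED2*, among 20667 genes listed per library. They were taken by symbol from the deposited FPKM (fragments per kilobase of transcript, relative to all fragments mapped), and the set was selected on the difference between ROCK2 KD and Scr in these same libraries. The differences between these groups are therefore given for the 10 genes as a description, with no test. U2932 is an established line of ABC-DLBCL, the diffuse large B-cell lymphoma that resembles activated B-cells. Stable cells carried a lentiviral shRNA against the kinase ROCK2 (ROCK2 KD, 3 libraries) or a scrambled shRNA (Scr, 3 libraries), both in a pLKO.1 vector with puromycin resistance and tGFP, after sorting and puromycin selection. All cells were grown in Iscove's DMEM with serum, and the labels name no other treatment. A single ROCK2 hairpin was used, and the labels do not say whether same-numbered or same-group libraries came from separate infections, so any p-value measures the spread between these libraries, which may be technical.

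ERK is activated when RAS, RAF and MEK pass a signal from surface receptors, in B-cells chiefly from the B-cell receptor, and its output includes its own brakes. Dual specificity phosphatases remove phosphate from the threonine and the tyrosine that switch MAP kinases on. DUSP1, DUSP2, DUSP4 and DUSP5 are inducible nuclear enzymes, DUSP6 is cytoplasmic and prefers ERK, and DUSP10 prefers JNK and p38. DUSP22 is a small atypical member without the MAP kinase binding domain. Sprouty and SPRED proteins act upstream, between the receptor and RAF.

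As a check of the labels, *ROCK2* was measured at an FPKM of 2.75, 5.35 and 1.26 in ROCK2 KD replicates 1, 2 and 3, and at 4.32, 7.21 and 5.78 in the Scr libraries. Each ROCK2 KD library was below its Scr partner, most so in replicate 3. The B-cell genes *CD79A*, *CD79B*, *MS4A1*, *PAX5*, *CD22* and *CD74* were above an FPKM of 1 in every library, and the 10 T-cell, myeloid, fibroblast and erythroid markers examined were each under 1 in every library. *EPCAM*, an epithelial marker, was between 2.59 and 5.00, while *KRT8* and *KRT18* were at 0.148 or less. The ROCK2 KD library of replicate 3 stood apart in *CD22*, at 29.1 against 85.5 in its Scr partner, and in *CD44*, at 19.5 against 3.15. The FPKM summed to 208289 and 217309 in the libraries of replicate 1 and to between 438262 and 480612 in the others. FPKM do not state depth, but the steps between the smallest values of a gene put the libraries between 72.2% and 92.0% of the depth of Scr replicate 3. Replicate numbers pair the libraries, so differences were taken within them on log2(scaled FPKM + 1), a scale that understates the change of low genes.

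Among the phosphatases, *DUSP2* and *DUSP5* had the largest differences, with every ROCK2 KD library above its Scr partner. *DUSP10* was also higher in each pair, by smaller amounts. *DUSP1* was level. *DUSP22* and *SPRED2* differed in opposite directions between pairs, and *DUSP4*, *DUSP6* and *SPRY1* were below an FPKM of 1 in every library. In bulk RNA, fewer cells expressing a gene and less RNA per cell cannot be told apart. The fit across all genes took those that reached an FPKM of 1 in 3 or more libraries, which 6 of the 10 genes did, and *DUSP4*, *DUSP6*, *SPRY1* and *SPRED1* did not. Among the 6, 3 were higher in all 3 pairs and 0 were lower in all 3, where 12.7% of the 10526 genes tested were higher in all 3 pairs and 12.3% were lower in all 3. Since the set was chosen on this contrast, nothing is read from that count. The fit, limma blocked on the replicate number with Benjamini-Hochberg adjustment, called 0 genes (0% of those tested) at an adjusted p below 0.05, with 0.811 the lowest adjusted p. The unadjusted p was below 0.05 for 567 of the 10526 genes, close to the share that this threshold passes with no difference at all. With ComBat on the replicate number in place of the block 297 genes passed the adjusted threshold. There the replicate differences were removed before a fit with no term for them, and 2112 genes had an unadjusted p under 0.05.

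**Figure D1:**
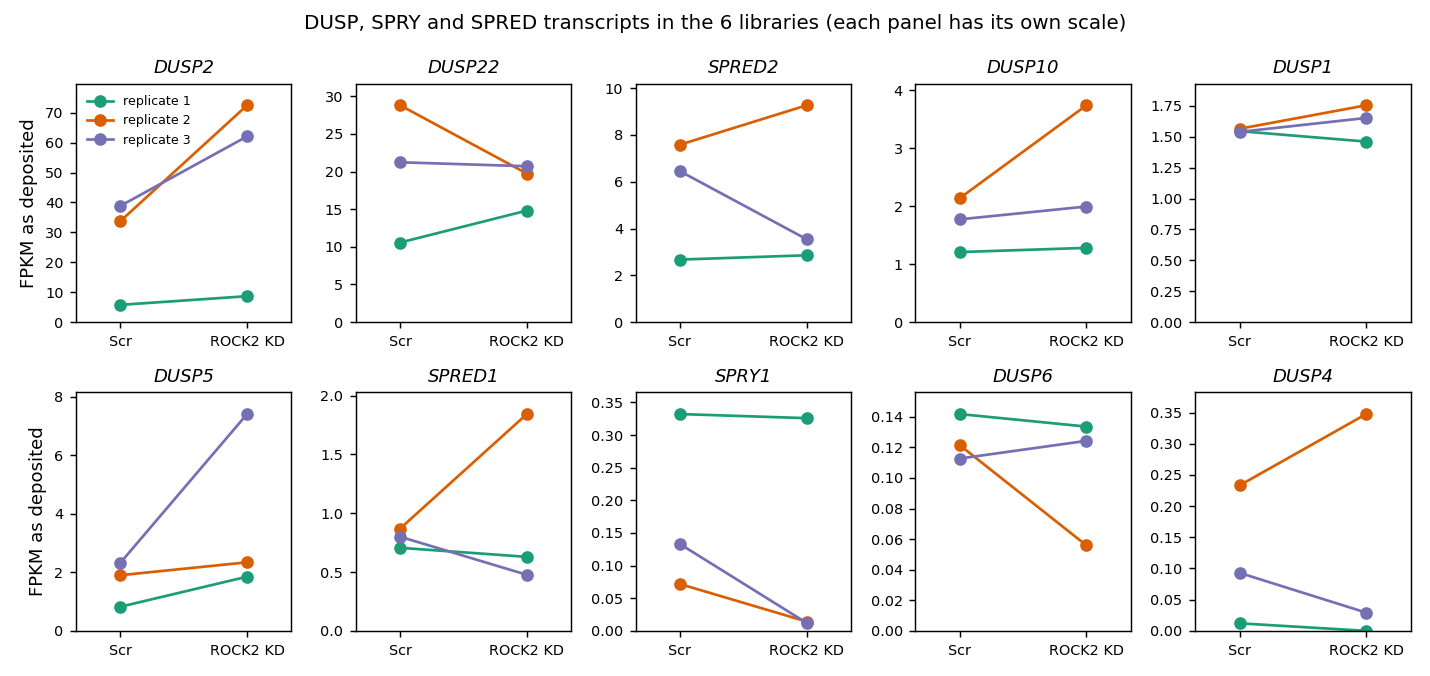
FPKM of each of the 10 genes (y axes, linear, each panel on its own scale) in Scr and ROCK2 KD libraries, with a line joining the libraries of the same replicate number. The lines for *DUSP2*, *DUSP5* and *DUSP10* go up in each pair, while those for *DUSP22*, *SPRED2* and *SPRED1* cross or part.

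Because *DUSP2* had the largest difference and *DUSP1*, the related immediate-early phosphatase, was level, their promoters are shown side by side. The 250 bases before the RefSeq start of each gene are on the minus strand, at chr2:96811180-96811429 for *DUSP2* and chr5:172198199-172198448 for *DUSP1* (GRCh37, the build called hg19, each placed by its single exact match of the GRCh38.p14 RefSeq window). They are written 5′ to 3′, with the letters of the motifs searched in capitals.
DUSP2: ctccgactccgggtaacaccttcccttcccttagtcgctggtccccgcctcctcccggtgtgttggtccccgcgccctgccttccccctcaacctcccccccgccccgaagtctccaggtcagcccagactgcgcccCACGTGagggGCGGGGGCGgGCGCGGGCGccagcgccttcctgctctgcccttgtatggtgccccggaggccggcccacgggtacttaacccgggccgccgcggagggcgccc
DUSP1: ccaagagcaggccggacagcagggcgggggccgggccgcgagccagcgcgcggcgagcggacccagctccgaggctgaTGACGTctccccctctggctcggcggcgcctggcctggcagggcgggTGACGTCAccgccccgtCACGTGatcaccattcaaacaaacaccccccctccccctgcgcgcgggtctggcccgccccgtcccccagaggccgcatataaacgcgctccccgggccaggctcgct

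Both promoters were rich in G and C, at 74.0% for *DUSP2* and 74.4% for *DUSP1*, against a median of 58.0% over 27305 RefSeq promoters. Windows of 300 bases, 250 before and 50 after the start, were searched on both strands for 9 strings of letters, with 8 of the 10 genes matched to a window (all but *DUSP4* and *DUSP5*). The *DUSP2* window held the EGR letters GCGNGGGCG at 2 places, as GCGGGGGCG from -103 and GCGCGGGCG from -93 (with -1 the base before the start), and 9.28% of all windows held these letters. It also held the E-box CACGTG at -113, present in 7.43% of windows. The *DUSP1* window held the cyclic AMP response element TGACGTCA at -125, present in 1.98% of windows, which contains the shorter TGACGT on both strands. A further TGACGT lay at -172, and an E-box at -108. TGACGT was found in 8.32% of windows and also after the start of *SPRED2*. The ETS letters GGAAGT were present in 23.2% of windows and in that of *DUSP22*. AP-1 (TGANTCA, 7.76% of windows), interferon response (GAAANNGAA, 8.29%), NF-kappaB (GGGANTTTC, 1.3%) and serum response element letters (CCATATTAG, 0.0952%) were in none of the matched windows. These are matches of letters, and no binding was measured.

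*DUSP2*, also called PAC-1 and known for its induction in activated lymphocytes, lies on chromosome 2 from 96808908 to 96811179 (GRCh37). It was measured at an FPKM of 8.66, 72.5 and 62.1 in ROCK2 KD replicates 1, 2 and 3, and at 5.77, 33.8 and 38.8 in Scr replicates 1, 2 and 3. Each ROCK2 KD library was above its Scr partner, while the groups as a whole overlapped because both libraries of replicate 1 were low. The ROCK2 KD level was 150.2%, 215% and 159.8% of that of Scr in replicates 1, 2 and 3. The mean log2 difference was 0.75 (standard error 0.13, SD of the 3 pairs 0.29), and leaving out replicate 1, 2 or 3 gave 0.86, 0.58 and 0.81. Standard errors here and below come from the limma fit, which draws the variance of each gene toward that of other genes. They are not computed from the 3 pairs of the gene alone. Ordered from the most positive to the most negative difference, *DUSP2* ranked 27 among 10526 genes, a rank that belongs to the choice of the gene.

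For *DUSP5*, a nuclear phosphatase specific for ERK (chromosome 10, 112257665 to 112271291), the FPKM was 1.85, 2.34 and 7.41 in ROCK2 KD and 0.824, 1.90 and 2.33 in Scr. Its highest value was in the ROCK2 KD library of replicate 3, the one that stood apart in *CD22* and *CD44*, and the groups overlapped. The levels were 2.25, 1.23 and 3.18 times those of Scr, and the mean log2 difference was 0.74 (standard error 0.20, SD of the 3 pairs 0.54). Without replicate 3 it was 0.46, so that this pair supplied much of the mean. The part of that library's other differences in this result was not tested.

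The JNK and p38 phosphatase gene *DUSP10*, on chromosome 1 from 221874766 to 221915431, had an FPKM of 1.28, 3.74 and 1.99 in ROCK2 KD and 1.21, 2.14 and 1.77 in Scr. All 3 pairs had the higher value in ROCK2 KD, but the differences in replicates 1 and 3, 0.054 and 0.090 on the log2 scale, were small beside 0.56 in replicate 2. The mean log2 difference was 0.23 (standard error 0.14), and it was 0.068 without replicate 2.

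*DUSP1*, the founding MAP kinase phosphatase and a stress-inducible gene, lies on chromosome 5 from 172195099 to 172198198. Its FPKM was 1.46, 1.76 and 1.65 in ROCK2 KD and 1.55, 1.57 and 1.54 in Scr. As deposited, before scaling, these 6 values spanned 1.20-fold, and the groups overlapped. The mean log2 difference was 0.028 (standard error 0.11).

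The most abundant phosphatase beside *DUSP2* was *DUSP22*, on chromosome 6 from 291630 to 351355. It had an FPKM of 14.8, 19.7 and 20.7 in ROCK2 KD and 10.6, 28.8 and 21.2 in Scr. The ROCK2 KD library was higher in replicate 1, lower in replicate 2 and close to Scr in replicate 3, with log2 differences of 0.46, -0.52 and -0.056. Their mean of -0.037 lay well within their spread (SD 0.49, n = 3 pairs).

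*DUSP4* and *DUSP6* were close to the floor of detection. *DUSP6*, on chromosome 12 from 89741012 to 89746278 and elsewhere a common readout of ERK activity, had an FPKM of 0.134, 0.0559 and 0.124 in ROCK2 KD and 0.142, 0.121 and 0.113 in Scr. *DUSP4*, on chromosome 8 from 29190581 to 29208201, was listed at 0 in ROCK2 KD replicate 1, and its other values ran from 0.0121 to 0.348, highest in both libraries of replicate 2. With mean log2 differences of -0.025 for *DUSP6* and 0.0027 for *DUSP4*, neither gene was higher or lower in all 3 pairs.

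**Figure D2:**
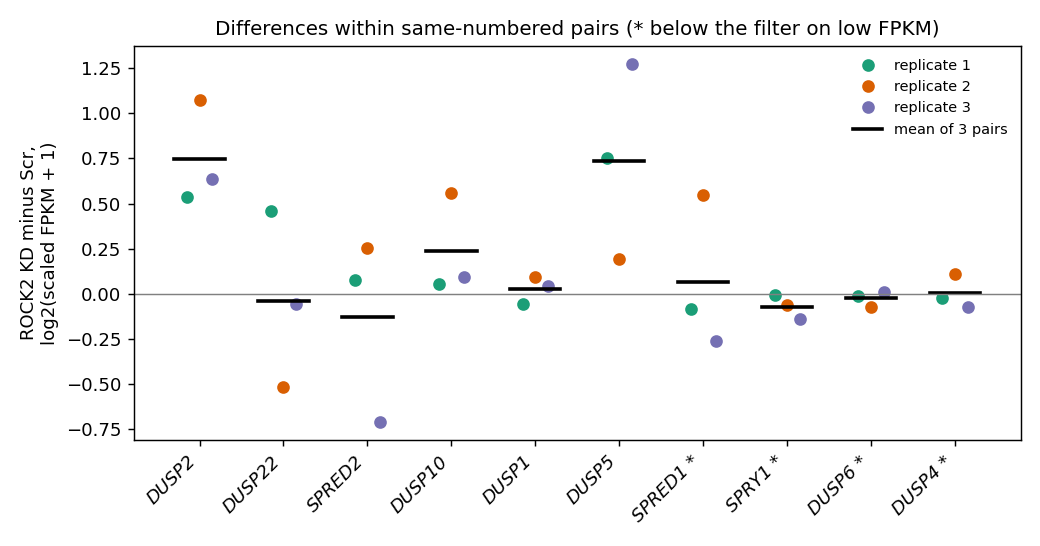
ROCK2 KD minus Scr on log2(scaled FPKM + 1) (y axis) for each of the 10 genes (x axis, ordered by level in Scr). Points are the 3 same-numbered pairs, black bars their mean, asterisks mark genes below the filter, and *DUSP2* is the gene with all of its points above 0.5.

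None of *SPRED2*, *SPRED1* and *SPRY1* was higher in all 3 pairs. *SPRED2*, which recruits the RAS inhibitor neurofibromin, lies on chromosome 2 from 65537985 to 65659771 and was the most abundant. Its FPKM was 2.86, 9.27 and 3.54 in ROCK2 KD and 2.67, 7.58 and 6.45 in Scr. It was higher in the ROCK2 KD libraries of replicates 1 and 2 and lower in that of replicate 3, with log2 differences of 0.077, 0.25 and -0.71. The sign of the mean, -0.13 (standard error 0.19, SD of the 3 pairs 0.51), was decided by replicate 3, since without it the mean was 0.17.

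For *SPRED1*, the close relative of *SPRED2* (chromosome 15, 38545037 to 38649450), the FPKM was 0.630, 1.84 and 0.477 in ROCK2 KD and 0.706, 0.871 and 0.800 in Scr. Only the ROCK2 KD library of replicate 2 was above 1. Differences of -0.082, 0.55 and -0.26 on the log2 scale gave no common direction. *SPRY1*, on chromosome 4 from 124317950 to 124324915, had an FPKM of 0.326, 0.0143 and 0.0122 in ROCK2 KD and 0.332, 0.0717 and 0.133 in Scr. It was the one gene of the 10 that was lower in all 3 pairs, with a mean log2 difference of -0.071 at levels that the pseudocount of 1 compresses. In replicate 1 its values were nearly equal, and the other pairs rest on an FPKM of at most 0.133. *SPRY2*, *SPRY3*, *SPRY4* and *SPRED3*, the rest of the family, were at an FPKM of 0.265 or less in every library and were not tested.

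FPKM are relative to transcript length, so the levels can be ordered between genes. In Scr, *DUSP2* (26.1 ± 17.8, SD, n = 3) and *DUSP22* (20.2 ± 9.16, SD, n = 3) came first and did not differ beyond their spread, as *DUSP2* was above *DUSP22* in 2 of 3 libraries. *SPRED2* followed at 5.57 ± 2.57 (SD, n = 3), below *DUSP22* and above the next gene in all 3 libraries. *DUSP10* (1.71 ± 0.469), *DUSP1* (1.55 ± 0.0132) and *DUSP5* (1.68 ± 0.775; SD, n = 3 each) came next, and neighbours among these 3 did not differ beyond their spread. *SPRED1* was lower, at 0.792 ± 0.0824 (SD, n = 3), and *SPRY1*, *DUSP6* and *DUSP4* came last, at 0.179, 0.125 and 0.113, without a settled order. Among other MAP kinase phosphatases, *DUSP7* and *DUSP14* were measured at 6.27 ± 1.64 and 8.33 ± 1.77 (SD, n = 3) in Scr, above *DUSP1*, *DUSP5* and *DUSP10*.

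The replicate number, which the choice of genes did not use, separated some of them. A limma F test of the replicate number, with the condition in the model and added after the values had been seen, gave an adjusted p under 0.05 for 48.7% of all genes tested and for 2 of the 6 genes tested here. *DUSP2* was lower in replicate 1 than in replicates 2 and 3, by a log2 difference of -1.88 (adjusted p = 0.000565 from limma). The direction was the same under the other 3 scalings, with differences from -2.64 to -1.70. *DUSP1* was higher in replicate 1 by 0.45 (adjusted p = 0.0442 from limma). The difference was 0.57 with upper-quartile scaling (adjusted p = 0.0177 from limma) and 0.32 with median-of-ratios scaling (adjusted p = 0.124 from limma). Without scaling it was -0.069 (adjusted p = 0.836 from limma), so 3 of the 4 scalings shared its direction. *DUSP5*, *SPRED2*, *DUSP10* and *DUSP22* had adjusted p values from 0.0615 to 0.885 from limma, and without scaling from 0.00554 to 0.0197, all 4 then lower in replicate 1. *DUSP5* also passed with median-of-ratios scaling, at -0.43 (adjusted p = 0.0367 from limma).

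**Figure D3:**
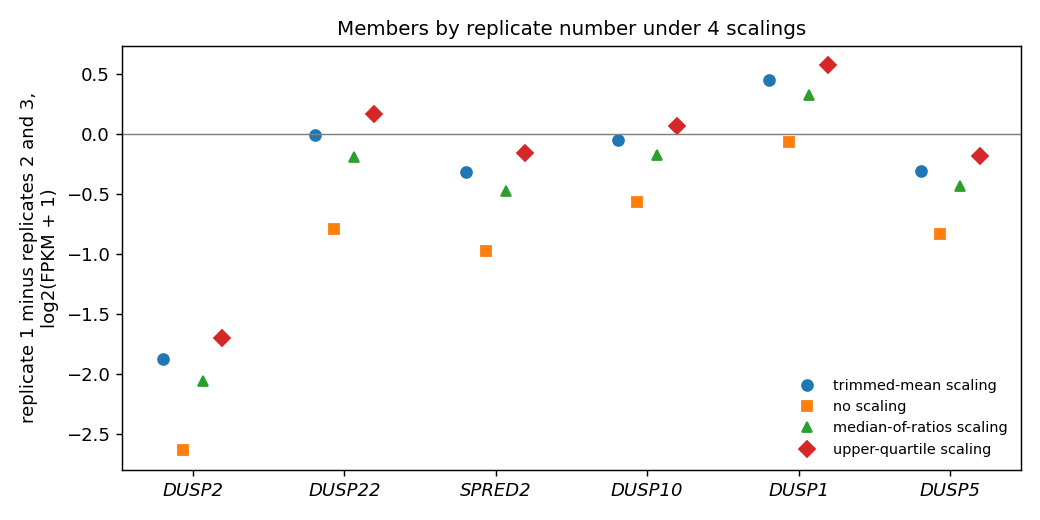
Mean of the libraries of replicate 1 minus the mean of replicates 2 and 3 (y axis, log2(FPKM + 1)) for the 6 genes tested (x axis), with 1 marker for each of 4 scalings. Every marker of *DUSP2* lies at -1.70 or lower, while those of *DUSP1*, *DUSP10* and *DUSP22* fall on both sides of 0.

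Of 11 heat and stress genes, 9 passed the same test of the replicate number, against 48.7% of all genes tested, and they did not share a direction. *ATF3*, a stress-induced transcription factor, was at an FPKM of 20.6 and 31.0 in the ROCK2 KD and Scr libraries of replicate 1 and between 1.12 and 2.85 in the other 4. *DDIT3* was at 67.0 and 80.4 in replicate 1 and between 14.3 and 20.6 in the others. The chaperone gene *HSPA8* was instead low in replicate 1, at 183 and 262 against values between 786 and 982. Their part in the level of *DUSP2* was not tested.

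The other genes of the pathway were taken from lists drawn up by role, with earlier results of these data known. Of 104 genes, 103 were listed and 73 tested, and none passed the adjusted threshold in the limma fit. At an unadjusted p under 0.05, 7 of the 73 were higher in ROCK2 KD, against 3.09% of all genes tested, and 0 were lower, against 2.30%. Their median log2 difference was 0.067, beside -0.0043 over all genes tested. With replicate 1 left out, 6 of 70 were higher and 3 lower at an unadjusted p under 0.05, where 2.98% of all genes in that fit were higher and 4.995% lower.

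By role, the other MAP kinase phosphatases were 2 higher and 3 lower of 5 tested, with differences from -0.14 (*DUSP16*) to 0.15 (*DUSP14*) and none at an unadjusted p under 0.05. The atypical phosphatases *DUSP11* and *DUSP12* had log2 differences of 0.15 and -0.11. Of the core from RAS to ERK, 11 of 13 genes had a mean above 0, as 48.7% of all genes tested had, but none had an unadjusted p under 0.05. The RAS GTPase activating proteins, which switch RAS off, were 5 higher and 2 lower of 7 tested by the same measure, with *RASA1* at 0.23 and 0 of 7 at an unadjusted p under 0.05.

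Upstream of RAS, the adaptor gene *GAB2* had a log2 difference of 0.29 (standard error 0.12, unadjusted p = 0.0435, adjusted p = 0.909 from limma), higher in all 3 pairs. Its unadjusted p from limma was 0.113 without replicate 2 and 0.199 without replicate 3. *MAP2K6*, the p38-activating kinase, had 0.56 (standard error 0.13, unadjusted p = 0.00349, adjusted p = 0.811 from limma), with an FPKM of 1.68, 6.07 and 6.41 in ROCK2 KD and 0.834, 3.16 and 4.87 in Scr. It was higher in ROCK2 KD in all 3 pairs and under each replicate left out, between 0.46 and 0.67. *MAPKAPK2*, a kinase downstream of p38, was higher by 0.31 and *ETS2*, an ERK-responsive transcription factor, by 0.33 (unadjusted p = 0.0306 and 0.0244 from limma, adjusted p = 0.897 and 0.888). The unadjusted p from limma for *MAPKAPK2* was 0.0807 without replicate 1 and 0.170 without replicate 3, where the difference was 0.21. For *ETS2* it was 0.0935 without replicate 1 and 0.0861 without replicate 3.

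Of 17 transcripts known to be induced by ERK signalling, 9 were tested, with 6 higher and 3 lower. At an unadjusted p under 0.05, 3 were higher in ROCK2 KD, against 3.09% of all genes tested, and 0 lower. *EGR1* was at an FPKM of 0.753, 6.82 and 7.40 in ROCK2 KD and 0.566, 2.03 and 2.62 in Scr, a log2 difference of 0.89 (standard error 0.22, adjusted p = 0.811 from limma). *EGR2* was at 0.232, 4.90 and 3.05 against 0.0586, 0.886 and 1.07, a difference of 0.91 (standard error 0.22, adjusted p = 0.811 from limma). Both were low in replicate 1, as *DUSP2* was, and both were higher in each pair. Without replicate 2 or 3 neither gene passed the filter. *ETV5* had 0.56 (standard error 0.20, adjusted p = 0.888 from limma) and 0.24 without replicate 2 (unadjusted p = 0.166 from limma). *MYC*, with differences of 0.38, -0.073 and -0.58, had no common direction.

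**Figure D4:**
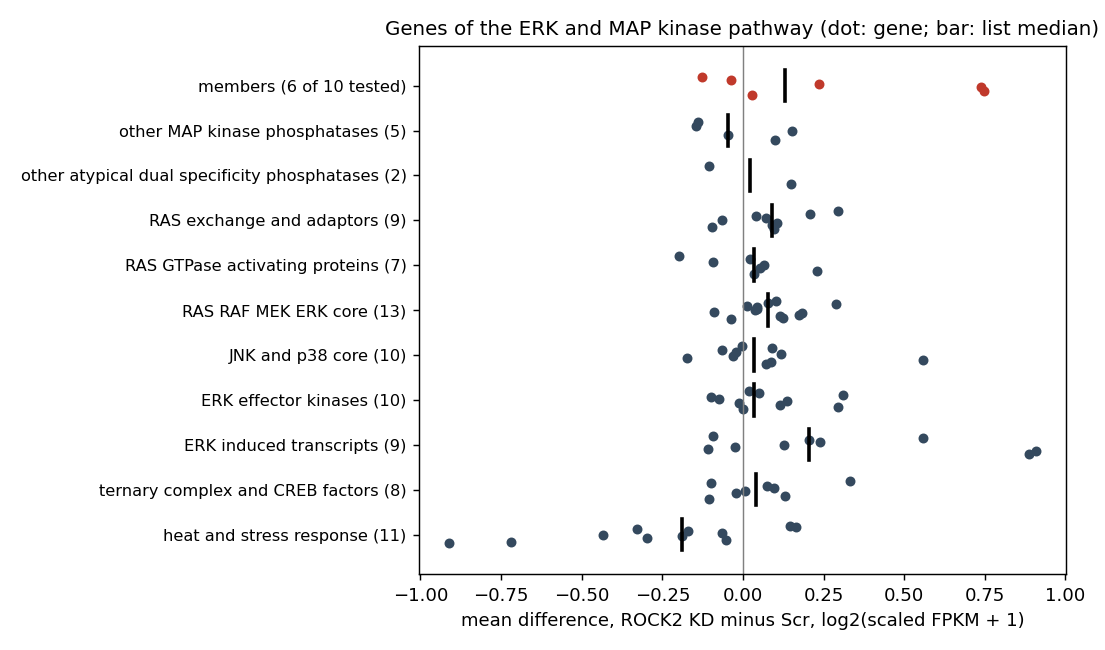
Mean difference between ROCK2 KD and Scr (x axis, log2(scaled FPKM + 1)) for each tested gene, by list (y axis, number of genes tested in brackets), with black bars at the list medians and the 6 tested genes described here as red dots. Most dots lie within 0.25 of 0, *EGR1*, *EGR2* and *ETV5* stand to the right among ERK-induced transcripts, and *HSPA1A* and *HSPA1B* to the left among heat and stress genes.

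Some heat shock genes were lower in ROCK2 KD. *HSPA1A*, encoding an inducible HSP70 chaperone, was at an FPKM of 41.5, 53.1 and 14.3 in ROCK2 KD and 88.4, 107 and 22.9 in Scr, lower in all 3 pairs, with a log2 difference of -0.91 (standard error 0.11, adjusted p = 0.811 from limma). *HSPA1A* and *HSPA1B* are near-identical copies, so the division of reads between them is uncertain. Of 11 heat and stress genes, all tested, 2 were higher and 9 lower, and none passed the adjusted threshold. At an unadjusted p under 0.05, 4 were lower, against 2.30% of all genes tested, namely *HSPA1A*, *HSPA1B*, *HSP90AA1* and *HSPH1*. With replicate 1 left out, 5 of the 11 genes were higher and 6 lower. At an unadjusted p under 0.05, 1 was then higher and 3 lower, against 2.98% and 4.995% of all genes in that fit. The differences of the 4 genes named above stayed below 0. The unadjusted p from limma was then 0.00101 for *HSPA1A* and 0.0102 for *HSPA1B*, but 0.0722 for *HSP90AA1* and 0.218 for *HSPH1*. The part of this difference in the levels of *DUSP1* and the other stress-inducible phosphatases was not tested.

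The genes whose pattern over the 6 libraries was most like that of *DUSP2*, which had both the largest difference and the highest level in Scr, were *COX7C*, *IFITM2* and *PIK3CG*. After the mean of each replicate number was subtracted, Pearson's r over 6 libraries lay between 0.9997 and 0.9999. These correlations rest on 3 pair differences, and 44 genes had an r above 0.99. The log2 differences of these 3 genes were 0.11, 0.27 and 0.19, well below that of *DUSP2*. *DUSP1*, *DUSP6* and *DUSP22* overlap unnamed long noncoding genes on the opposite strand, and *SPRED2* one on its own strand, whose reads cannot be told apart from theirs in the counting.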

How the data were processed

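The authors sequenced Nextera libraries of total RNA as paired reads, aligned them to hg19 with STAR and computed FPKM with Cufflinks. The deposited values are FPKM, with 1 file per library, and the annotation is not given in the sources used here. The genes and lists were chosen with earlier results of these data known. Libraries were aligned by trimmed-mean scaling. Genes reaching an FPKM of 1 in 3 or more libraries were fitted on log2(scaled FPKM + 1) with limma 3.58.1 in R 4.3.3, with condition and replicate number as a block, empirical Bayes with a mean-variance trend, and two-sided p-values adjusted by Benjamini-Hochberg. The study's own test used limma on counts corrected by ComBat; counts were not used here. After group means were removed, libraries sharing a number correlated at 0.848, 0.784 and 0.737 across genes, so the numbers from the labels pair the libraries. Genes named beyond the 10 are, per list, those at an unadjusted p under 0.05 or the largest differences, and others named for a role were chosen after their values were seen. Fits were tried on simulated data with independent noise and added changes larger than the mean differences of ROCK2 KD from Scr given here. That outcome is not reported here and is not used as support. Gene positions are from GENCODE 44 lifted to GRCh37, and promoters from RefSeq. Alternatives are given in the closing section. Some genes of the lists are not reported here.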

Additional observations from a re-analysis of the deposited data

How the results depend on the processing

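*DUSP2*, *DUSP5* and *DUSP10* were higher, and *SPRY1* and *DUSP6* lower, in ROCK2 KD under every alternative run for them. Removing the block or the variance trend, or changing the filter, leaves these means as they are, so those settings could not turn a sign. For *DUSP6* the values reached -0.0019, with 1 of its 3 pairs higher. The lowest and highest mean log2 differences were 0.57 and 0.86 for *DUSP2*, 0.46 and 0.996 for *DUSP5*, and 0.068 and 0.35 for *DUSP10*. Leaving out a replicate number turned the sign of 5 small differences, whose ranges were -0.0062 to 0.078 for *DUSP1*, -0.045 to 0.041 for *DUSP4*, -0.29 to 0.20 for *DUSP22*, -0.16 to 0.23 for *SPRED1* and -0.31 to 0.17 for *SPRED2*. With a pseudocount of 0.1, *DUSP4* was at -0.12, *DUSP6* at -0.15 and *SPRY1* at -0.49. Without scaling, 8 of the 10 genes kept their place in the order of levels. The count of genes with an adjusted p under 0.05 from limma was 0 in the main fit with the replicate block and 0 with no replicate block, where 30 genes had an unadjusted p under 0.05. ComBat on the replicate number followed by limma with no replicate block gave 297, and the cause was not tested. With a replicate number left out the count lay between 0 and 1, the single gene, *SNORA9*, coming without replicate 2. In the alternatives added after seeing the data, the difference of replicate 1 from the others was -0.069 for *DUSP1* without scaling, and 0.070 for *DUSP10* and 0.17 for *DUSP22* with upper-quartile scaling. The paper gives an approximate range of sequencing depth per sample, but the absolute depth of each single library is not known here.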
